A study of Mus musculus with 5 samples.

Results

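The 9 genes described here carry peptides to the cell surface on MHC class I molecules, or load them there. They are B2m, H2-D1, H2-K1, H2-Q4, H2-Q6, H2-T23, Tap1, Tap2 and Tapbp. They were chosen by name, and all 9 were found among the 27998 genes of each count table. Single cells had been sorted from the endosteal marrow (the inner bone surface) of Nes-GFP mice as negative for CD45 and positive for CD31, then kept frozen until encapsulation in droplets, where the 3' ends of transcripts were counted by unique molecular identifiers (UMIs). The aged group comprised replicates 2 and 3, from mice over 20 months old, and the young group replicates 1, 2 and 3, from mice of 10 to 12 weeks. Every mouse carried the Nes-GFP reporter. The labels do not say how many animals were behind a library or whether the replicates came from separate animals. In the age comparisons p-values therefore measure the spread between libraries. In comparisons of cell classes, with the library as a block, they measure how much the class difference varied between libraries.

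The labels call the sorted cells endothelial, but most of the 2116 cells that passed the filter carried B-lineage markers. Clustering, with the 9 genes and the rest of their pathway left out, gave 360 cells led by the surrogate light chain genes Vpreb1, Vpreb2 and Igll1 (SLC cells), 527 pre-B-like, 300 late B-like, 725 dividing B-lineage, 182 myeloid-like and 20 endothelial-like cells. Another 2 cells of the endothelial cluster had UMIs of fewer than 2 of 14 endothelial markers and were kept apart. The late B-like class rests mainly on class II genes: 85.7% of its cells had a UMI of Cd74, but 17.3% of Ms4a1 and 21.7% of Rag1. Of 12 late B markers 6 had a UMI in 10% or more of these cells. When classes were set by marker genes instead of clusters, 154 of the 300 stayed late and 124 became pre-B-like. Total UMIs per library ran from 935656 to 5900751, and the median of a kept cell from 1889.5 to 4212.5. Young replicate 1 stood apart: it held 590 of the dividing and 173 of the myeloid-like cells but 2 of the pre-B-like. Both libraries of replicate 2 had 0 UMIs of Xist, with 313 UMIs of Y-linked genes in aged and 264 in young replicate 2, against 1 or 2 in the other 3. Across libraries 26 cell barcodes recurred, 5 of them among kept cells.

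An MHC class I molecule is a heavy chain bound to beta-2 microglobulin, which shows a peptide from inside the cell to CD8 T cells. In mice H2-K1 and H2-D1 encode the classical heavy chains, while H2-Q4, H2-Q6 and H2-T23 lie in the Q and T regions that encode mostly non-classical ones; H2-T23 gives Qa-1, a ligand of receptors on natural killer and T cells. Proteasomes cut proteins into peptides, the TAP1-TAP2 transporter pumps these into the endoplasmic reticulum, and tapasin, the product of Tapbp, holds the heavy chain beside the transporter until a peptide is bound. Interferons and NF-kappaB factors are known inducers of many of these genes, and nearly all nucleated cells express them.

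On GRCm38 (GENCODE M21), B2m lies on chromosome 2 (chr2:122147686-122153083, plus strand) and the other 8 genes lie in the MHC on chromosome 17, all as protein-coding genes. Tapbp (chr17:33915899-33929292) and H2-K1 (chr17:33996017-34000347, minus strand) come first, then Tap1 (chr17:34187553-34197225) and Tap2 (chr17:34203527-34216321). H2-D1 (chr17:35262730-35267499), H2-Q4 (chr17:35379617-35385290), H2-Q6 (chr17:35424850-35430055) and H2-T23 (chr17:36029773-36032855, minus strand) follow. The heavy chain genes are close relatives in sequence, and how reads that match several of them were counted is not given in the sources used here, so the values of single heavy chains carry that uncertainty.

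Promoter stretches of B2m and the heavy chains are shown because these genes moved together between dividing and non-dividing cells. The windows come from RefSeq (GRCm38.p6, 250 bases before to 50 after each start), which matched 8 of the 9 genes. Capitals mark matches, on either strand, to GGGATTCCC (the NF-kappaB-type element of class I promoters), TTTCACTTC (the interferon-response type element of class I promoters) or TTTCNNTTTC (a general interferon-response core), none of which overlapped another here. The starts are those of RefSeq and differ from the ends of the GENCODE genes given above, so that the H2-D1 and H2-T23 stretches lie before the RefSeq start but inside the GENCODE gene. The stretches read 5′ to 3′ on the strand of the gene and lie at chr17:34000414-34000472 (H2-K1), chr17:35262909-35262967 (H2-D1), chr17:35379449-35379487 (H2-Q4), chr17:35424663-35424721 (H2-Q6), chr17:36032801-36032840 (H2-T23) and chr2:122147533-122147572 (B2m).
H2-K1: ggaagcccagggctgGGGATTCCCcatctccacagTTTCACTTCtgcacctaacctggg
H2-D1: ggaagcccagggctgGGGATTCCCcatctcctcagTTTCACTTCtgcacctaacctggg
H2-Q4: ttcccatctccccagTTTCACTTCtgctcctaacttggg
H2-Q6: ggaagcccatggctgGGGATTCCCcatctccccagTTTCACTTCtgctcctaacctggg
H2-T23: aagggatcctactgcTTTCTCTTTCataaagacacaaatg
B2m: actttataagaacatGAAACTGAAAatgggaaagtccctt

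GGGATTCCC was found in the windows of H2-D1, H2-K1 and H2-Q6, and in 0.414% of the 27025 genes with a window. TTTCACTTC was found in those 3 and in H2-Q4, against 0.596% of all genes, and TTTCNNTTTC in B2m and H2-T23, against 3.99%. None of the 3 was matched in the windows of Tap1 or Tapbp. These are matches of letters, and no binding was measured.

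The levels of the members differed widely in size, and all levels given as CPM are UMIs of the gene per 1000000 UMIs of a class in a library. In SLC cells B2m stood at 5288 ± 929 CPM (SD, n = 5 libraries), H2-D1 at 3337 ± 1179 and H2-K1 at 1705 ± 287. The Q-region genes H2-Q4 and H2-Q6 stood at 562 ± 173 and 394 ± 183 CPM, H2-T23 at 143 ± 66.0, Tapbp at 125 ± 39.2, Tap2 at 89.8 ± 13.8 and Tap1 at 85.2 ± 23. Counts at 3' ends do not scale with transcript length, so these values rank tags and not necessarily molecules of each gene.

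**Figure D1:**
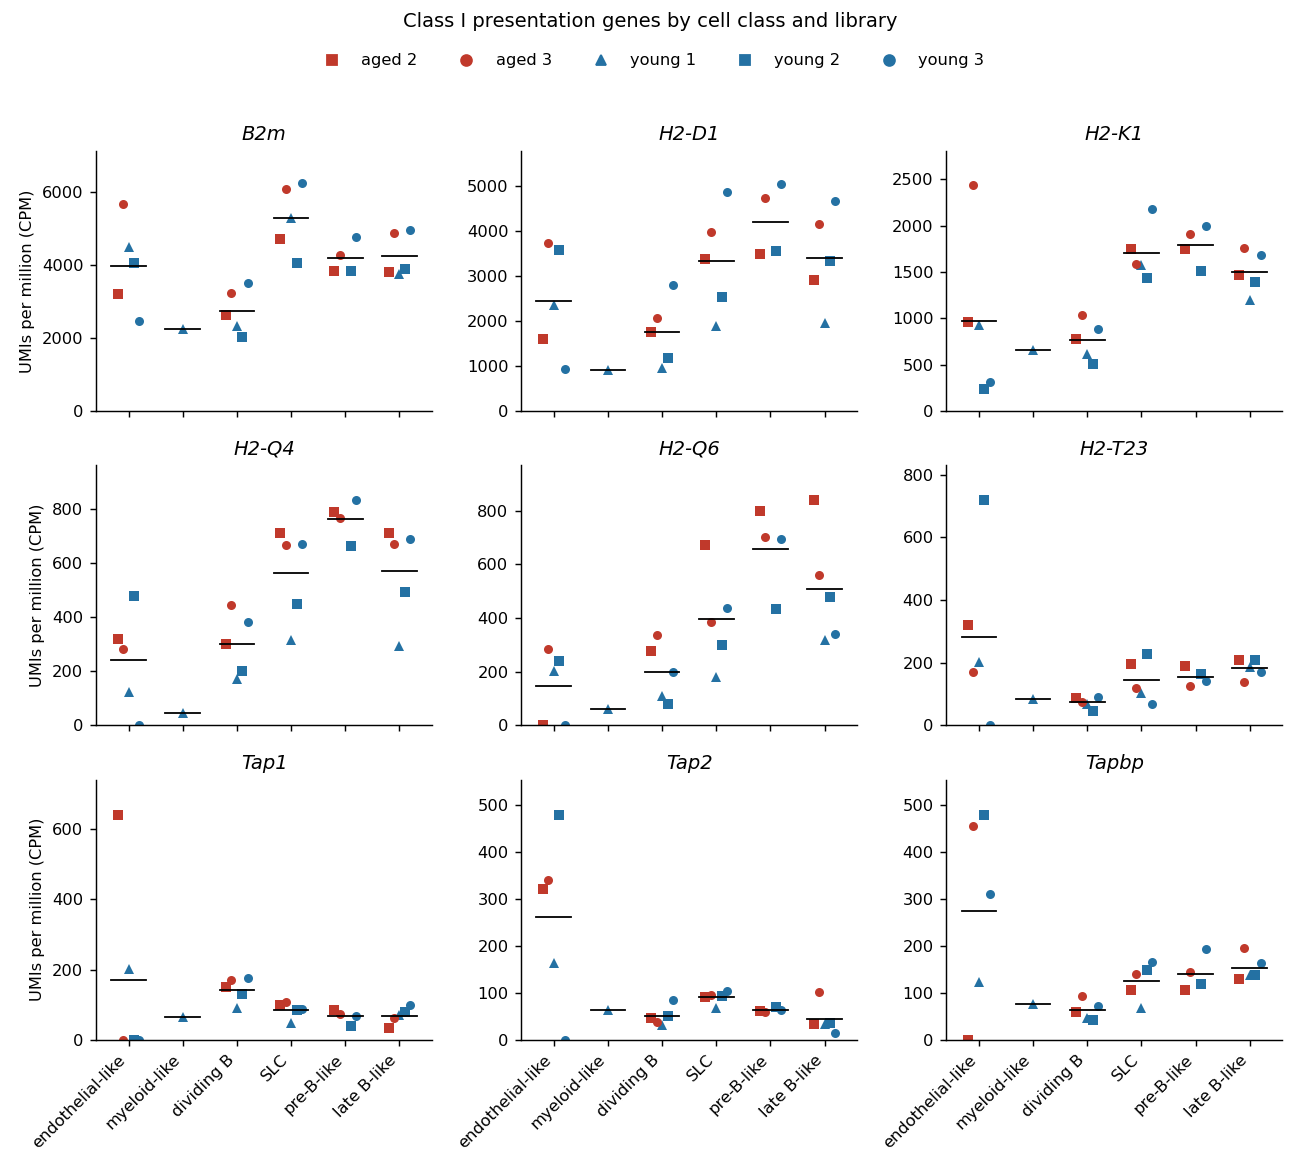
CPM of each member (y axis, linear, from 0) in each cell class (x axis), with 1 point per library (aged red, young blue) and a black line at the mean over libraries; classes under 10 cells in a library are left out, except endothelial-like sums of 1 to 8 cells. The means of B2m and the 5 heavy chains sit lower in dividing than in the 3 non-dividing B-lineage classes, that of Tap1 sits higher, and endothelial-like points scatter widely.

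Ordered by mean CPM, B2m was highest in SLC cells, then in late B-like (4260 ± 604), pre-B-like (4190 ± 436, n = 4), endothelial-like (3986 ± 1222), dividing (2747 ± 615) and myeloid-like cells (2265 in the only library with 10 such cells). H2-D1, H2-K1, H2-Q4 and H2-Q6 all had their highest mean in pre-B-like cells, at 4210 ± 796, 1790 ± 214, 762 ± 72.1 and 657 ± 156 CPM. For these 5 genes the ranges of every pair of neighbours in the order overlapped, except that every dividing sum of H2-D1 lay above the myeloid-like value of 908. H2-T23, Tap1, Tap2 and Tapbp had their highest mean in endothelial-like cells, from sums that held 0 to 8 UMIs of each. Among B-lineage classes Tap1 was highest in dividing cells (143 ± 34.4 CPM), with a range that overlapped that of SLC cells. Tap2 was highest in SLC cells, whose lowest library (66.7 CPM) lay above the myeloid-like value of 63.3 but overlapped the pre-B-like range, which reached 69.5.

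Dividing B-lineage cells gave the clearest difference. A smaller share of their UMIs came from B2m, all 5 heavy chains and tapasin than in non-dividing B-lineage cells, while a larger share came from Tap1. With the library as a block, 8 of the 9 members passed (edgeR quasi-likelihood test, adjusted p under 0.05 over 5335 genes), 7 lower and 1 higher. Many genes differed, and 49.4% of all genes tested passed, 25.2% higher and 24.2% lower. The median log2 fold change was -0.96 over the members and -0.04 over all genes.

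B2m stood at 2641 and 3228 CPM in dividing cells of aged replicates 2 and 3 and at 2327, 2031 and 3510.5 CPM in those of young replicates 1, 2 and 3. In non-dividing cells it stood at 4293 and 5069.5 CPM in the aged and at 4249.7, 3912 and 5425 CPM in the young libraries. Every dividing sum lay below every non-dividing one, and the log2 fold change was -0.66 ± 0.07 (SE, edgeR adjusted p = 8.75e-09). H2-D1, a classical heavy chain, stood at 1769.9 and 2066 CPM in aged dividing cells and at 957, 1185 and 2804 in young ones, against 3389 and 4328 CPM in aged non-dividing cells and 1933, 3265 and 4879 in young ones. The groups overlapped, with young replicate 1 lowest in both classes, but H2-D1 was lower in dividing cells of each library (log2 fold change -0.96 ± 0.08, edgeR adjusted p = 3.12e-10).

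H2-K1, the other classical heavy chain, stood at 781 and 1040.0 CPM in aged dividing cells and at 616, 507 and 890.0 in young ones, against 1723 and 1760.0 CPM in aged non-dividing cells and 1318, 1465 and 1986 in young ones. Its groups did not overlap, and the log2 fold change was -1.03 ± 0.09 (edgeR adjusted p = 1.67e-09). H2-Q6 stood at 275 and 337 CPM in aged dividing cells and at 109, 79.6 and 198 in young ones, against 738 and 554 CPM in aged non-dividing cells and 297, 411 and 497 in young ones. It had the largest fall of the members in this fit, with a log2 fold change of -1.28 ± 0.15 (edgeR adjusted p = 1.01e-07). H2-Q4, H2-T23 and Tapbp fell as well, with log2 fold changes of -0.92, -1.06 and -1.05 and adjusted p between 8.20e-07 and 2.91e-05. All 7 of the members that fell were lower in dividing cells of 5 of 5 libraries. The dividing class joins a cluster led by mitosis genes and another led by replication genes. In the mitosis cluster H2-Q4 stood at 717 CPM in aged replicate 3, against 708 in its non-dividing cells. H2-T23 stood there at 158 CPM in young replicate 3, from 9 UMIs, against 120. The other values of these 7 members in either cluster lay below those of non-dividing cells of the same library.

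Tap1 moved the other way. It stood at 149 and 169 CPM in aged dividing cells and at 90.5, 129.8 and 177 in young ones, against 87.9 and 82.2 CPM in aged non-dividing cells and 62.4, 60.2 and 83.4 in young ones. Every dividing sum lay above every non-dividing one, with a log2 fold change of 0.99 ± 0.16 (edgeR adjusted p = 1.64e-05). Thinning each cell to 1000 UMIs discards counts and weighs all cells alike, so a lost call can reflect lower power. In that setting the Tap1 difference was 0.69 and did not pass (edgeR adjusted p = 0.124). Its partner Tap2 stood at 45.2 and 37.5 CPM in aged dividing cells and at 31.0, 50.3 and 84.8 in young ones, against 74.2 and 82.2 CPM in aged non-dividing cells and 46.8, 67.1 and 66.0 in young ones. It was lower in 4 of 5 libraries and did not pass (log2 fold change -0.41 ± 0.22, adjusted p = 0.127), but passed, at -0.58, without young replicate 3 (adjusted p = 0.0427).

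**Figure D2:**
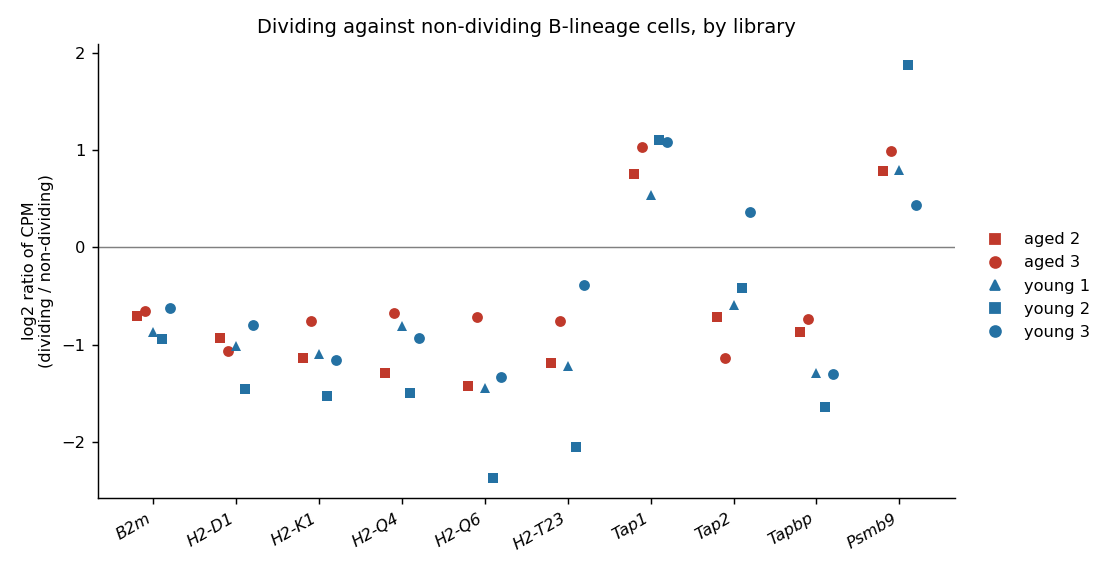
Log2 ratio of CPM, dividing over non-dividing B-lineage cells (y axis, 0 marks equal shares), for each member and for Psmb9 (x axis), with 1 point per library. B2m, the heavy chains and Tapbp lie below 0 and Tap1 and Psmb9 above 0 in all 5 libraries, and Tap2 lies above 0 in young replicate 3.

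The lower shares came with more UMIs per cell. Dividing cells averaged 7383 and 4852 UMIs in aged replicates 2 and 3 and 5522, 9949 and 3826 in young replicates 1, 2 and 3, against 2911 and 2009 in aged and 2691, 2923 and 2100.5 in young non-dividing cells. Per cell, B2m gave 19.5 and 15.7 UMIs in aged and 12.8, 20.2 and 13.4 in young dividing cells, against 12.5 and 10.2 in aged and 11.4, 11.4 and 11.4 in young non-dividing cells. B2m was thus higher per cell, and lower in CPM, in dividing cells of each library. The 5 heavy chains together gave 23.7 and 19.2 UMIs in aged and 10.6, 20.1 and 16.7 in young dividing cells, against 19.8 and 15 in aged and 10.8, 17.2 and 17.2 in young non-dividing cells. They were higher per cell in 3 libraries and slightly lower in young replicates 1 and 3. Tap1 gave 110 and 81.8 UMIs per 100 cells in aged and 50, 129 and 67.6 in young dividing cells, against 25.6 and 16.5 in aged and 16.8, 17.6 and 17.5 in young non-dividing cells.

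**Figure D3:**
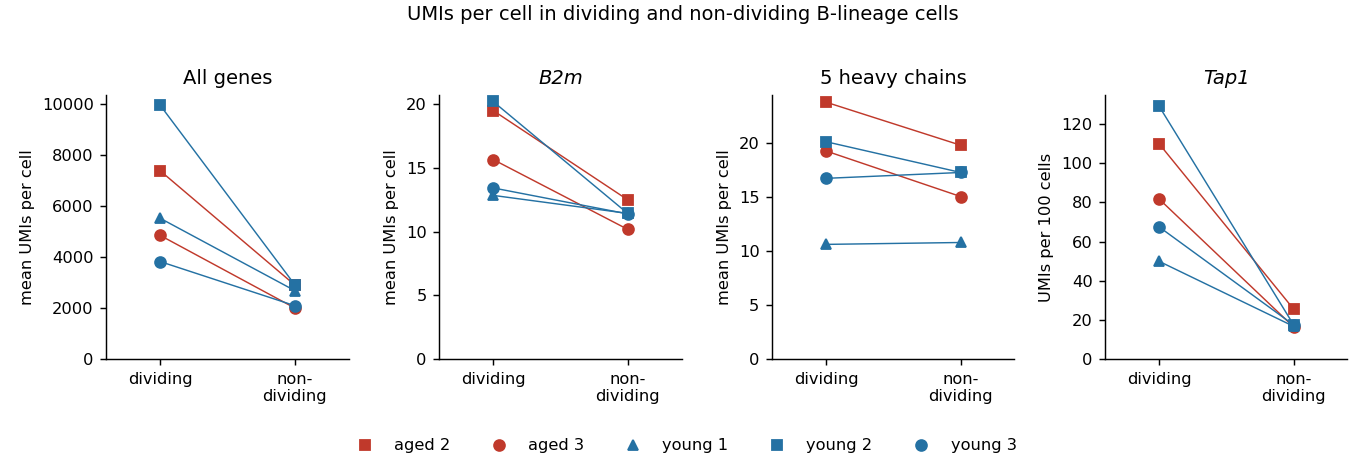
Mean UMIs per cell of all genes, of B2m and of the 5 heavy chains together, and UMIs of Tap1 per 100 cells (y axes, linear, from 0), in dividing and non-dividing B-lineage cells (x axis), with a line joining the classes of 1 library. All genes, B2m and Tap1 slope down from dividing to non-dividing cells in all 5 libraries, and the heavy chains are nearly level in young replicates 1 and 3.

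Markers of red cell precursors also differed between dividing sums. The 8 erythroid markers together gave 8203 CPM in aged and 6216 CPM in young replicate 3, against 67 to 235 CPM in the other dividing sums and 49.9 to 179 CPM in non-dividing ones. Leaving out either of these libraries kept at least 8 members past the threshold. With SLC cells alone as the non-dividing class, an alternative added after seeing the data, 9 members passed, 8 lower and Tap1 higher. The shares of all genes that passed in these alternatives are not given here, so these counts of members stand without that background.

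Other genes of the pathway, from lists chosen by function, divided along similar lines. Psmb9, the immunoproteasome subunit LMP2, lies next to Tap1 on the opposite strand and rose with it. It stood at 185 and 164 CPM in aged dividing cells and at 211, 247 and 141 in young ones, against 107 and 82.2 CPM in aged non-dividing cells and 122, 67.1 and 104 in young ones (log2 fold change 1.09 ± 0.17, edgeR adjusted p = 8.32e-06). Of 8 peptide supply genes tested, Psmb9 and the proteasome activator Psme3 (0.88) rose and none fell. Of 5 loading chaperones, the lectin chaperone Canx rose (0.41) and none fell.

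The remaining lists held more genes that fell. Among other class I heavy chains 3 of 4 fell, namely H2-Q7 (-1.01), H2-M3 (-1.06) and H2-Q10 (-1.43), and so did Cd1d1 (-1.09), the lipid-presenting class I-like molecule. Of 14 regulators tested 11 fell and none rose, with a median of -0.85. They included the interferon-response factor Irf1 (-1.25), the NF-kappaB subunits Nfkb1 (-1.02) and Relb (-1.02) and the interferon receptor kinase Jak1 (-0.99). Of 5 interferon-induced genes 4 fell, led by Trim30a (-1.85).

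The Tap1 window is shown because it holds the RefSeq starts of both genes that rose together. Its RefSeq window (GRCm38.p6, chr17:34187306-34187605, plus strand) shares 275 bases with that of Psmb9, and the 2 RefSeq starts lie 226 bases apart. In GENCODE M21 Psmb9 (chr17:34181987-34187764, minus strand) starts outside this window and overlaps the first bases of Tap1. Capitals run from the RefSeq start of Psmb9, which is read to the left, to the RefSeq start of Tap1, which is read to the right.
Tap1: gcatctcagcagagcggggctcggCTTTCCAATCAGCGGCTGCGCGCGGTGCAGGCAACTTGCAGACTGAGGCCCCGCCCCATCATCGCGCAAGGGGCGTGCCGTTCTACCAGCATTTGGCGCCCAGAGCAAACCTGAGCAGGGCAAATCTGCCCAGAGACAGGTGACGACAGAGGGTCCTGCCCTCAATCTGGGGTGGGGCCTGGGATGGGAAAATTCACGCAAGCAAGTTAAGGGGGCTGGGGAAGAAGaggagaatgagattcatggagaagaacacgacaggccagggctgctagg

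Along the non-dividing B lineage the members shifted by smaller amounts and not all in the same direction. In pre-B-like against SLC cells, a comparison added after seeing the data in the 4 libraries with at least 10 cells of both classes, 4 of the 9 members passed, with B2m lower and H2-D1, H2-Q4 and H2-Q6 higher. Of all 3864 genes tested 29.4% passed, 14.9% higher and 14.5% lower. B2m stood at 3856 and 4282 CPM in pre-B-like cells of aged replicates 2 and 3 and at 3851 and 4769.9 CPM in young replicates 2 and 3, against 4719 and 6098 CPM in aged and 4059.8 and 6269.6 CPM in young SLC cells. The groups overlapped, and within each of the 4 libraries pre-B-like cells were lower (log2 fold change -0.29 ± 0.07, edgeR adjusted p = 0.00182).

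H2-Q6 stood at 798 and 702 CPM in aged and 433 and 696 CPM in young pre-B-like cells, against 673 and 384 CPM in aged and 298 and 436 CPM in young SLC cells. It was higher in pre-B-like cells of 4 of 4 libraries (0.59 ± 0.13, edgeR adjusted p = 0.000354). H2-Q4 and H2-D1 rose by 0.32 and 0.23 on the log2 scale (adjusted p = 0.0414 and 0.0188), also in 4 of 4 libraries. With cells thinned to 1000 UMIs B2m alone passed, at -0.32 (edgeR adjusted p = 0.00295). H2-Q6, H2-Q4 and H2-D1 then stood at 0.39, 0.14 and 0.08 (edgeR adjusted p = 0.0893, 0.609 and 0.577). Calls lost on thinning mix the loss of counts with the equal weight of cells. With DESeq2 H2-Q6 alone passed, and without the library block no member did. H2-D1 and H2-Q4 lost their calls without young replicate 2 or aged replicate 3, and H2-Q4 also without young replicate 3.

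**Figure D4:**
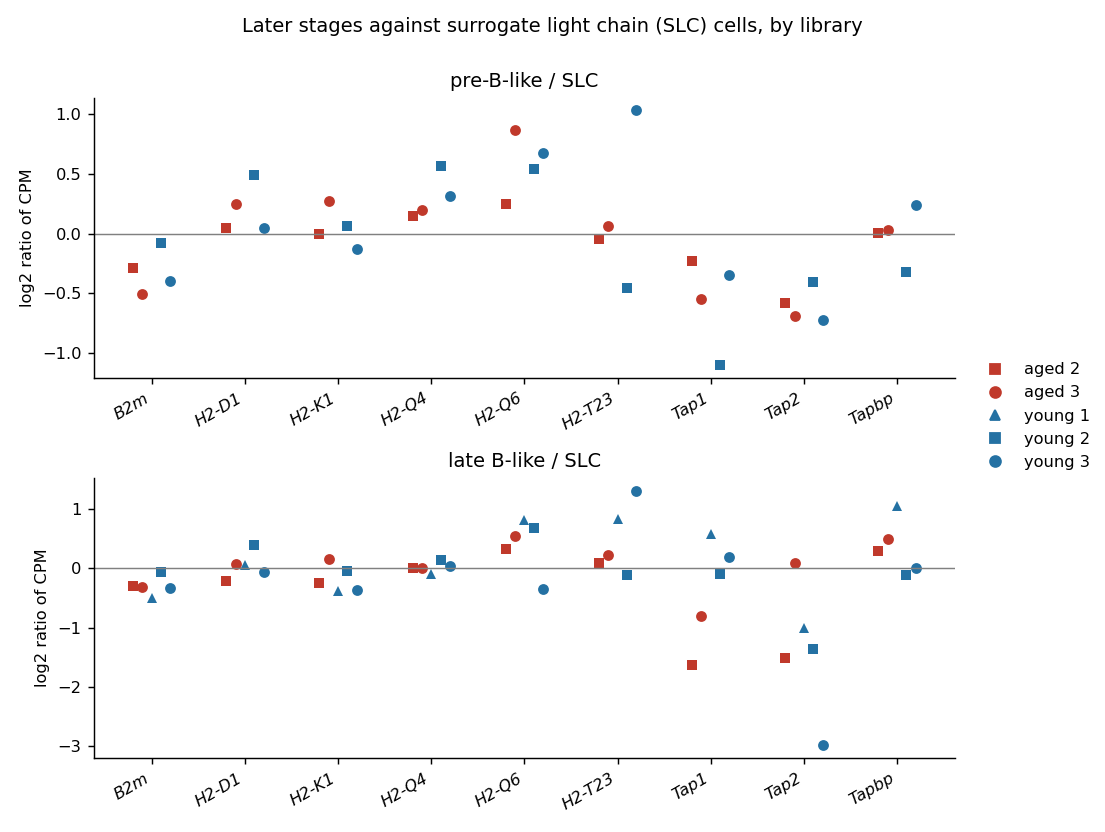
Log2 ratio of CPM of pre-B-like over SLC cells (upper panel) and of late B-like over SLC cells (lower panel), for each member (x axis) and library (points); the panels differ in y scale, and young replicate 1 has too few pre-B-like cells to be drawn. B2m lies below 0 throughout, H2-D1, H2-Q4 and H2-Q6 lie above 0 in every pre-B-like ratio, and Tap1 and Tap2 scatter most in late cells.

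In late B-like against SLC cells 2 of 9 members passed, B2m and Tap2, both lower, where 24.3% of 2675 genes passed, 11.5% higher and 12.9% lower. B2m stood at 3820.2 and 4875 CPM in late cells of aged replicates 2 and 3 and at 3751, 3893 and 4963 in young replicates 1, 2 and 3, against 4719 and 6098 CPM in aged SLC cells and 5295, 4059.8 and 6269.6 in young ones. It was lower in late cells of 5 of 5 libraries (-0.30 ± 0.08, edgeR adjusted p = 0.00362). Tap2 stood at 32.2 and 101 CPM in aged late cells and at 33.2, 36.1 and 13.1 in young ones, against 91.6 and 94.9 CPM in aged SLC cells and 66.7, 92.3 and 104 in young ones. It was lower in 4 of 5 libraries (-0.96 ± 0.34, edgeR adjusted p = 0.0348), aged replicate 3 being the exception. Neither passed with DESeq2, without the library block or with classes set by marker gates in place of clusters. With the gates B2m stood at -0.13 (edgeR adjusted p = 0.472) and Tap2 at -0.97 (edgeR adjusted p = 0.0503). The B2m call was also lost without young replicate 3 (adjusted p = 0.0518), and Tap2 lost its call without aged replicate 2 or any 1 of the young libraries and was not tested, by the filter on low counts, without aged replicate 3.

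H2-Q6 was higher in late cells of 4 of 5 libraries but did not pass (0.36 ± 0.15, edgeR adjusted p = 0.0782). It passed in 3 alternatives, at 0.45 with doublets left out (edgeR adjusted p = 0.0418), at 0.54 with marker gates (edgeR adjusted p = 0.0441) and at 0.58 without young replicate 3 (edgeR adjusted p = 0.00867), and stood at -0.02 with cells thinned to 1000 UMIs (edgeR adjusted p = 0.976). Between late B-like and pre-B-like cells, also added after seeing the data, 0 of 9 members passed (lowest edgeR adjusted p = 0.198), where 9.6% of 2926 genes did (5.33% higher and 4.27% lower); 1 member had an unadjusted p under 0.05, and DESeq2 also called 0.

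Of the rest of the pathway, peptide supply genes that passed were all lower in the later stages. Psmb8, the immunoproteasome subunit LMP7, stood at 166 and 143 CPM in aged and 139 and 115 CPM in young pre-B-like cells, against 259 and 227 CPM in aged and 284 and 307 CPM in young SLC cells of replicates 2 and 3 (log2 fold change -0.86 ± 0.18, edgeR adjusted p = 9.32e-05). In late against SLC cells Psmb8 fell by 0.76 and Psme1, a proteasome activator subunit, by 0.51. Pdia3, the disulfide isomerase of the loading complex, fell by 1.29 in pre-B-like and by 0.87 in late cells, and was the only one of 5 and 4 chaperones tested to pass. Among regulators, Irf8, an interferon regulatory factor of B and myeloid cells, rose by 0.51 in pre-B-like and by 0.59 in late cells, and Irf1 rose by 0.58 in pre-B-like cells. H2-Q7 rose by 0.50 in pre-B-like cells, and the interferon-induced gene Ifi27l2a by 1.28 in late cells.

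The ratio of B2m to heavy chain UMIs moved with these stages. It was 0.550 and 0.519 in aged and 0.608 and 0.548 in young pre-B-like cells of replicates 2 and 3, against 0.703 and 0.904 in aged and 0.819 and 0.761 in young SLC cells. Median depth moved the same way, at 1873 UMIs in pre-B-like and 2828.5 in SLC cells. In aged replicates 2 and 3 and young replicates 2 and 3 the barcodes left out by the cell filter, which averaged 598 to 909 UMIs, had ratios of 0.222 to 0.276, against 0.633 to 0.678 in their non-dividing B-lineage cells. In young replicate 1, whose left-out barcodes averaged 3017 UMIs, the ratios were 0.771 and 1.06. The part of depth in the stage differences of B2m and of the heavy chains was not tested. Thinning cannot decide it, because drawing UMIs at random from a cell leaves the expected share of each gene in that cell unchanged.

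Endothelial-like cells, the labelled cell type, numbered 2 and 8 in aged replicates 2 and 3 and 7, 1 and 2 in young replicates 1, 2 and 3. Each of 14 endothelial markers had a UMI in 10% or more of these cells, and the 14 together gave 11622 CPM. They carried B2m at 3209 and 5672 CPM in the aged and 4497, 4069 and 2483 CPM in the young libraries, from 10 and 100 and from 111, 17 and 8 UMIs. The non-dividing B-lineage sums given above lay between 3912 and 5425 CPM, inside the endothelial-like range. Single endothelial-like cells ran from 689 to 10576 CPM of B2m with a median of 4200.0.

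With all 5 libraries 2 members passed against non-dividing B-lineage cells, H2-Q4 lower and Tap2 higher, where 20.7% of 2518 genes passed, 5.88% higher and 14.8% lower. In this fit the median over all genes was -0.60, but each gene was tested against 0. The adjusted p-values thus do not say whether a gene lay below or above that median. H2-Q4 stood at 321 and 284 CPM in aged and 122, 479 and 0 CPM in young endothelial-like sums, from 1, 5, 3, 2 and 0 UMIs, against 742 and 708 CPM in aged and 299.8, 569 and 728 CPM in young B-lineage cells (-1.52 ± 0.56, edgeR adjusted p = 0.0339). Tap2 stood at 321 and 340.3 CPM in aged and 162, 479 and 0 CPM in young endothelial-like sums, from 1, 6, 4, 2 and 0 UMIs, against 74.2 and 82.2 CPM in aged and 46.8, 67.1 and 66.0 CPM in young B-lineage cells (1.78 ± 0.56, edgeR adjusted p = 0.0124). Both rest on 11 and 13 UMIs, and 0 members passed with the 2 libraries of at least 5 endothelial-like cells or without young replicate 1. Leaving out any other library ended the call of H2-Q4 or of Tap2. Without aged replicate 3, H2-D1, H2-K1 and H2-Q6 passed as lower beside H2-Q4, at -1.47, -2.11 and -2.05 (edgeR adjusted p = 0.0499, 0.0111 and 0.0459).

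Of the pathway lists, 3 genes passed as higher and 3 as lower in endothelial-like cells. Fcgrt, the class I-like neonatal Fc receptor that recycles antibody in endothelium, gave 2 and 11 UMIs in aged and 10, 2 and 1 in young endothelial-like sums, against 1 and 0 in aged and 0, 0 and 1 in young non-dividing B-lineage sums of 119 to 345 cells. The interferon-induced membrane genes Ifitm3 and Bst2 were higher too (log2 fold change 7.59 ± 0.51 and 3.19 ± 0.44, edgeR adjusted p = 5.72e-47 and 1.49e-11). Ifitm3 stood at 3209 and 3290 CPM in aged and 3930, 3112 and 2483 CPM in young endothelial-like sums, against 8.24 and 20.2 CPM in aged and 18.7, 3.44 and 15.6 CPM in young B-lineage sums. Irf8 (-2.39) and Cd1d1 (-2.99) were lower in endothelial-like cells. Tpp2, a peptidase of the peptide supply list, passed as lower too (edgeR adjusted p = 0.0244), with 0 UMIs in each endothelial-like sum against 61 and 69 UMIs in aged and 29, 52 and 36 UMIs in young B-lineage sums.

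Myeloid-like cells were almost all from young replicate 1, so their levels have no replicate check and were not tested. In 173 cells and 1957672 UMIs, B2m stood at 2265 CPM (95% Poisson interval 2199 to 2333), H2-D1 at 908 (866 to 951) and H2-K1 at 664 (628 to 701). H2-Q4 and H2-Q6 stood at 45.5 (36.5 to 55.9) and 60.8 (50.4 to 72.7) CPM, and H2-T23, Tap1, Tap2 and Tapbp between 63.3 and 83.3. The intervals cover counting error only. In the same library non-dividing B-lineage cells had 4249.7 CPM of B2m, 1933 of H2-D1, 1318 of H2-K1, 299.8 of H2-Q4 and 297 of H2-Q6. In dividing B-lineage cells of that library these genes stood at 2327, 957, 616, 171 and 109 CPM. Of the myeloid-like cells of all libraries 44.0% had a UMI of Mki67. The part of cell division in the myeloid-like levels was not tested. Over all libraries myeloid-like cells were deeper, with a median of 9524.5 UMIs against 2255 in non-dividing B-lineage cells.

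Among myeloid sub-clusters of that library B2m ran from 1813 CPM in the 17 neutrophil-like cells, led by S100a8 and S100a9, to 2700 CPM in 21 cells led by Dntt and Cox6a2. The 41 basophil- or mast-like cells, led by Bglap, Prss34 and Mcpt8, had 2558 CPM. H2-T23 ran from 18.9 CPM in the neutrophil-like cells to 185 CPM in 24 cells led by the class II genes H2-Aa and Cd74, which also had the highest values of H2-D1 (1292), Tap1 (116) and Tapbp (162).

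No member passed the comparison of aged with young libraries, the one the series was made for. By edgeR 0 of 9 members passed in non-dividing, SLC and dividing cells and 0 of 8 tested in late cells, and 0% of 6521, 3960, 3702 and 2751 genes passed. At an unadjusted p under 0.05 the counts of genes were 140, 114, 128 and 79. DESeq2 called 0 members in each as well. The self-test for non-dividing cells (6521 genes) recovered 80% of simulated 2-unit log2 changes and 20% of 1-unit changes. At the dispersion simulated, changes of a size near 1 would thus mostly be missed. Log2 fold changes of the members ran from -0.15 to 0.61 in non-dividing and from -0.21 to 1.25 in dividing cells.

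B2m stood at 4681 ± 549 CPM in aged and 4529 ± 794 CPM in young non-dividing cells (SD, n = 2 and 3), and H2-K1 at 1741 ± 26.3 CPM in aged and 1590 ± 351 in young ones. H2-D1 stood at 3859 ± 664 CPM in aged and 3359 ± 1475 in young ones, with young replicate 1 lowest at 1933 CPM. In all 3 genes the aged values lay inside the young range.

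H2-Q6 had the largest differences by age. In dividing cells it stood at 275 and 337 CPM in aged replicates 2 and 3, against 109, 79.6 and 198 CPM in young replicates 1, 2 and 3, so both aged libraries lay above all young ones (log2 fold change 1.25 ± 0.34, unadjusted p = 0.00174, edgeR adjusted p = 0.998). The dividing class holds 2 clusters in a mix that differed between libraries, and the clusters also differed in surrogate light chain genes, as given above. The cluster led by mitosis genes such as Cenpf and Top2a had 5 and 18 cells in aged and 375, 12 and 18 in young libraries, and the cluster led by replication genes such as Gins2 and Mcm2 had 25 and 26 in aged and 215, 12 and 19 in young ones. H2-Q6 stood at 263 and 425 CPM in aged and 186, 165 and 211 CPM in young cells of the mitosis cluster, and at 277 and 290 CPM in aged and 35.3, 37.5 and 189 CPM in young cells of the replication cluster, from 6 to 296 UMIs a sum. Both aged libraries lay above all young ones in each cluster, with no test made within clusters. Over all non-dividing cells it stood at 738 and 554 CPM in aged and 297, 411 and 497 in young libraries, again with no overlap (0.61 ± 0.28, unadjusted p = 0.049, edgeR adjusted p = 0.999). In SLC cells it stood at 673 and 384 CPM in aged and 181, 298 and 436 in young libraries, and aged replicate 3 lay inside the young range (0.71 ± 0.33, adjusted p = 0.999). In late cells it stood at 838 and 559.7 CPM in aged and 318, 477 and 340.4 in young libraries, with no overlap (0.80 ± 0.33, adjusted p = 0.999). H2-Q4 was also positive, at 0.37 in non-dividing, 0.46 in SLC, 0.44 in late and 0.58 in dividing cells. In each of these classes young replicate 1 was lowest, and young replicate 2 also lay below both aged libraries. Young replicate 3 lay between the aged values in each. In dividing cells young replicates 1, 2 and 3 stood at 171, 201 and 381 CPM, against 303 and 445 CPM in aged replicates 2 and 3. The classes come from the same libraries and are not independent of each other. Some other members separated as well. Tap2 was higher in aged non-dividing cells (74.2 and 82.2 CPM against 46.8, 67.1 and 66.0 in young). Its single stages did not share this. In pre-B-like cells Tap2 was lower in aged replicates 2 and 3 (61.1 and 58.8 CPM) than in young replicates 2 and 3 (69.5 and 62.8). In SLC cells its log2 fold change by age was 0.0005, and in late cells the groups overlapped. Tap1 was higher in aged SLC cells (99.7 and 107 against 47.6, 85.2 and 86.4). In aged late cells Tap1 was lower (32.2 and 61.6 against 71.1, 79.4 and 98.2). The share of all genes that separate was not counted, and with so few libraries separation alone carries little weight.

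**Figure D5:**
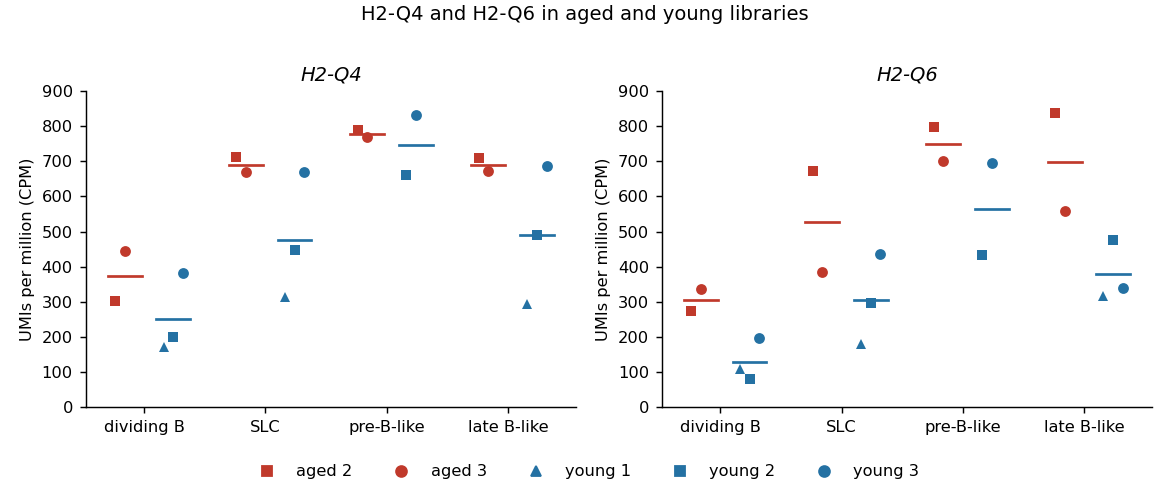
CPM of H2-Q4 and H2-Q6 (y axis, linear, from 0) in 4 B-lineage classes (x axis), aged libraries in red left of young ones in blue, with 1 point per library and a line at the group mean; young replicate 1 is left out of pre-B-like cells. For H2-Q6 the aged points lie above all young points in dividing, pre-B-like and late cells.

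Mixes of stages and sex-linked transcripts moved with libraries beside these values. Within replicate 2, whose libraries both lacked Xist, H2-Q6 in dividing cells stood at 275 CPM in aged against 79.6 in young, and within replicate 3, where both had it, at 337 in aged against 198 in young. The age difference between late and SLC cells was tested as an interaction, and 0 of 9 members and 0 of 2675 genes passed (116 genes had an unadjusted p under 0.05, and DESeq2 called 0 members). Tap1 and Tap2 had the largest interaction values, of -1.19 ± 0.57 and 1.36 ± 0.65 (adjusted p = 1.00 each).

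Across 19 B-lineage sums of at least 10 cells, B2m, H2-D1, H2-K1, H2-Q4, H2-Q6 and Tapbp followed the mean pattern of the other members with correlations of 0.797 to 0.921. H2-T23 (0.507) and Tap2 (0.267) followed it less and Tap1 ran against it (-0.427). The points share libraries and depth, Tap1 and Tap2 averaged 33.9 and 18.2 UMIs a sum, and the correlations are descriptions. Outside the pathway lists the genes of most similar pattern, among 2761, were Ypel3 (0.959), Pik3ip1 (0.934), Cd53 (0.912), Txnip (0.905), Nfkb2 (0.905), Rps27 (0.894), Gstm1 (0.893), Ptp4a3 (0.892), Lsp1 (0.889) and Sqstm1 (0.888). Nfkb2 is an NF-kappaB subunit, Pik3ip1 a brake on PI3 kinase, and Txnip a thioredoxin-binding protein.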

How the data were processed

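The authors deposited raw UMI counts per gene and barcode, 1 table per library; the submitters' processing notes name Cell Ranger, mm10, DESeq2 1.22.2, edgeR 3.24.3 and R 3.5.2, with no role given. PCR cycles were set for each library, per the labels' protocols. Symbols were matched for 27645 of 27998 gene identifiers. Barcodes with at least 500 genes, at least 1000 UMIs and at most 10% mitochondrial UMIs were kept (2116 of 3384). Scrublet called 49 doublets, which stayed in. Cells were clustered with scanpy 1.11.5 (2000 variable genes, 30 components, 15 neighbours, leidenalg 0.10.2 at resolution 0.8) without 80 genes of the class I pathway. Counts were summed per library and class and tested with edgeR 4.0.16 in R 4.3.3 (TMM scaling, filterByExpr, quasi-likelihood test, Benjamini-Hochberg adjusted p under 0.05). Class comparisons had the library as a block. DESeq2 1.42.0, RLE scaling, no gene filter, doublets left out, marker gates, cells thinned to 1000 UMIs and each library left out were alternatives. Poisson intervals are at 95%.

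All 9 members were named. Of each list of other pathway genes, up to 4 genes of smallest p were taken for each comparison, of which the text gives a part. The members and lists were chosen with earlier results of these data known. The fits were tested on simulated counts with the same dispersion for every gene, which was set and not estimated from these data. The recovered shares therefore do not describe the power for single members. Of 2-unit log2 changes 97% were recovered for dividing cells (5335 genes), 98% for late cells (2675) and 25% for endothelial-like cells (2518). Of 1-unit changes, nearer the size of most member differences, 57%, 64% and 6% were recovered in these fits.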

Additional observations from a re-analysis of the deposited data

Results flagged for a closer look

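Barcodes outside the comparisons carried class I transcripts. The 1268 barcodes that failed the cell filter gave 2133 CPM of B2m from 2360 UMIs, far above the limit of 2.71 CPM that 3 counts of their 1106602 UMIs would give. They come from all 5 libraries and have no class.

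Tap1 was lower in late than in pre-B-like cells of both aged libraries and higher in young replicates 2 and 3. The mean log2 ratio of aged libraries minus that of young ones was -1.59. The difference was not tested, and the sums hold few UMIs of Tap1.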

How the results depend on the processing

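For dividing against non-dividing cells at least 7 members passed in each of 13 alternatives. Shares of all genes that passed are given above for the main fits only, so counts of members in alternatives stand without that background. Of 355 alternative values of 29 named member results, 307 stayed on their side of the threshold, 41 lost and 6 gained a call, and 1 changed sign: H2-Q6 in late against SLC cells was -0.0168 with cells thinned to 1000 UMIs. In late against SLC cells 0 members passed with DESeq2 or without the library block, 1 with marker gates (H2-Q6), 3 with doublets left out and 1 with any single library left out (B2m, or H2-Q6 without young replicate 3). In pre-B-like against SLC cells 1 passed with DESeq2, 1 with thinned cells and 0 without the block, and 2 to 4 with single libraries left out. In the endothelial-like comparison 5 passed without the gene filter, 4 without doublets, 1 with thinned cells, 0 with libraries of at least 5 cells, and 0 to 4 with single libraries left out.

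No age alternative called a member. Same-numbered aged and young libraries deviated together over 4084 genes (correlations of 0.381 and 0.229), but the labels tie the numbers to no shared source. With the replicate block 26, 6, 1 and 0 genes passed in non-dividing, SLC, late and dividing cells, 0 of them members. The myeloid-like comparison and its alternatives were not run, as only 1 library held 5 such cells. The endothelial-like sums rest on 1 to 8 cells a library, which limits their precision.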
